A study of Homo sapiens with 12 samples.

Results

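The genes described here are 46 genes of mitosis and the G2/M transition, chosen by name: mitotic kinases and cyclins, the transcription factor FOXM1, checkpoint and anaphase genes, kinetochore, spindle and cytokinesis genes, and genes of chromosome structure. All 46 were found among the 59172 genes of the deposited expression table, and all 46 passed the filter on low values that left 18062 genes to test. HCT-116, a line of human colorectal carcinoma, was profiled by RNA sequencing in 12 libraries, 3 in each of 4 groups. In the first group, wild-type cells received CPT-11 for 24 h. CPT-11 (irinotecan) is a prodrug of a topoisomerase I inhibitor that breaks DNA during replication. In the second group, wild-type cells were given lovastatin, an inhibitor of cholesterol synthesis, for 4 h before CPT-11. The third group was SHP2-silenced cells that also received CPT-11 for 24 h, and the fourth was untreated wild-type cells. SHP2 is a tyrosine phosphatase encoded by PTPN11. One label of the SHP2-silenced libraries names lovastatin as well. Neither the sample titles nor the protocol text does so, and the titles were followed here. No group received lovastatin or had SHP2 silenced without CPT-11, and the labels do not give how SHP2 was silenced or whether the silenced cells are 1 clone. The 4 groups are called CPT-11, lovastatin + CPT-11, SHP2-silenced + CPT-11 and untreated.

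Cells commit to mitosis when cyclin-bound CDK1 is activated by CDC25 phosphatases, and Polo-like and Aurora kinases then drive spindle assembly. Kinetochores attach chromosomes to the spindle, the spindle checkpoint holds back the anaphase-promoting complex until attachment is complete, and the central spindle then directs cleavage of the cell. Most of these genes are transcribed in G2 and M under FOXM1 and the MuvB complex. After DNA damage the p53 target p21 and the DREAM complex are known to repress them through CHR elements in their promoters. Many of these promoters also hold CCAAT boxes, which were counted here as a separate motif. RNA of cell populations cannot tell fewer cells in G2 and M apart from less mRNA per cell, and this holds for every difference given here.

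The promoters of 5 of these genes are shown because their genes carry the main findings: CDC20 and PLK1 had the largest decreases with CPT-11, CCNB1 encodes cyclin B1, CDK1 was the one member that was higher with CPT-11, and ANLN differed most between SHP2-silenced and wild-type cells. Each sequence is the 150 bases before the start of the gene in RefSeq on GRCh38.p14, 5′ to 3′ on the plus strand, on which all 5 genes lie. They are at chr1:43358831-43358980 for CDC20, chr16:23678739-23678888 for PLK1, chr5:69167000-69167149 for CCNB1, chr10:60778181-60778330 for CDK1 and chr7:36389712-36389861 for ANLN. Capitals mark matches to the CHR element (TTTGAA or TTCGAA) and to the CCAAT box (CCAAT) on either strand.
CDC20: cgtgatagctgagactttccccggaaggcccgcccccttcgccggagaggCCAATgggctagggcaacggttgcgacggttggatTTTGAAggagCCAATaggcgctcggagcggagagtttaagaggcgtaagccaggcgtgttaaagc
PLK1: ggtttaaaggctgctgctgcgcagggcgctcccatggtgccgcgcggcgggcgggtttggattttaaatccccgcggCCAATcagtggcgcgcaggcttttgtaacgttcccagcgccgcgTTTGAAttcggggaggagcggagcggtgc
CCNB1: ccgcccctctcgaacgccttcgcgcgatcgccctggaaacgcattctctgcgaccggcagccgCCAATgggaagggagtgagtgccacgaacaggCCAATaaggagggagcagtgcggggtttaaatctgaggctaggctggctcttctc
CDK1: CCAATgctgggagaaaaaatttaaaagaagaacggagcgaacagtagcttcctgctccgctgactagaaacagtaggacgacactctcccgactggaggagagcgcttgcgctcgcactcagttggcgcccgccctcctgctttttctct
ANLN: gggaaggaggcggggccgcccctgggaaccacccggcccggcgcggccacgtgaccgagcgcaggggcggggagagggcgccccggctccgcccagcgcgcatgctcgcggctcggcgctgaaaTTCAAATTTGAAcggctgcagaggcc
In these 150 bases, CDC20 held 1 CHR match and 2 CCAAT matches, PLK1 held 1 of each, and CCNB1 held 2 CCAAT matches and no CHR match. CDK1 had 1 CCAAT match at the far end of the window, and ANLN had 2 CHR matches side by side on opposite strands and no CCAAT match. RefSeq promoters of 300 bases (250 before to 50 after the start) were matched for 37 of the 46 genes. In this longer window CDK1 held 1 CHR match and CDC20 held 2. The CDK1 match and 1 of the CDC20 matches lay before the 150 printed bases. A CHR match was present in 26 of the 37 (70.3%), against 16.4% of all 35116 promoters, and a CCAAT match in 29 (78.4%), against 34.6%. Both motifs stood in 22 (59.5%), against 6.4% of all promoters. Of the genes that fell with CPT-11, 14 of 20 with a promoter held a CHR match and 18 of 20 a CCAAT match, and of those that did not fall the counts were 12 of 17 and 11 of 17. A match is a run of letters in this window and was not tested as a binding site.

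The libraries held 14447847 to 16224271 assigned reads. PTPN11 stood at 6.01 to 7.15 FPKM in the SHP2-silenced + CPT-11 libraries, against 43.2 to 55.4 FPKM in the other libraries, and HMGCS1, a sterol-responsive gene of cholesterol synthesis, at 101 to 105 FPKM with lovastatin, against 24.9 to 31.2 FPKM in the other libraries. The SHP2-silenced libraries therefore did not carry the HMGCS1 level of the lovastatin libraries. Epithelial markers summed to 514 to 594 FPKM in the treated libraries and 500.1 to 547 FPKM in the untreated ones, and 14 markers of fibroblasts, endothelium and blood cells to at most 6.50 FPKM, with 2 to 8 of them at 0. One library stood apart: the third CPT-11 replicate differed from the other two CPT-11 libraries by a chi-square of 23.0 and 26.9 per degree of freedom, against 3.62 between those 2 and 2.01 to 8.72 within the other groups. Its highest correlation was 0.993 with a lovastatin + CPT-11 library, 0.991 with an SHP2-silenced + CPT-11 library and 0.982 with a CPT-11 library. Its values also rose with the GC content of the gene, by 0.17 on the log2 scale per 10 percentage points relative to untreated, against -0.07 and -0.10 in the other two CPT-11 libraries, 0.10 to 0.16 with lovastatin and 0.19 to 0.22 with silencing. Counts of genes that passed the test in comparisons with the CPT-11 group are given with and without this library, over the 46 genes and over each list. For CPT-11 against untreated, values of single members are given both ways where leaving it out changed the call or moved a called value by over 1.5 times. In the other comparisons with the CPT-11 group such values are given for some members only. Whether GC content or this library accounts for any difference was not tested.

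Untreated cells held the mitotic genes at high levels: 44 of the 46 averaged at least 10 FPKM (fragments scaled to gene length and to a size factor of the library), the highest being CDC20 at 139 ± 10.9 FPKM and TPX2 at 104 ± 5.50 FPKM (SD, n = 3). The summed level of the 46 genes was 1251, 1281 and 1121 FPKM with CPT-11, 1022, 999 and 1017 FPKM with lovastatin + CPT-11, and 1006, 1045 and 1077 FPKM in SHP2-silenced + CPT-11 cells, against 1585, 1636 and 1658 FPKM untreated. Every treated library lay below every untreated one. PRC1, which bundles the central spindle, was measured at 0.454 to 0.651 FPKM untreated and lower than any other member in all groups. Of its exon bases, 58.4% are shared with another annotated gene, against at most 15.9% for the other members, so its level is uncertain.

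**Figure D1:**
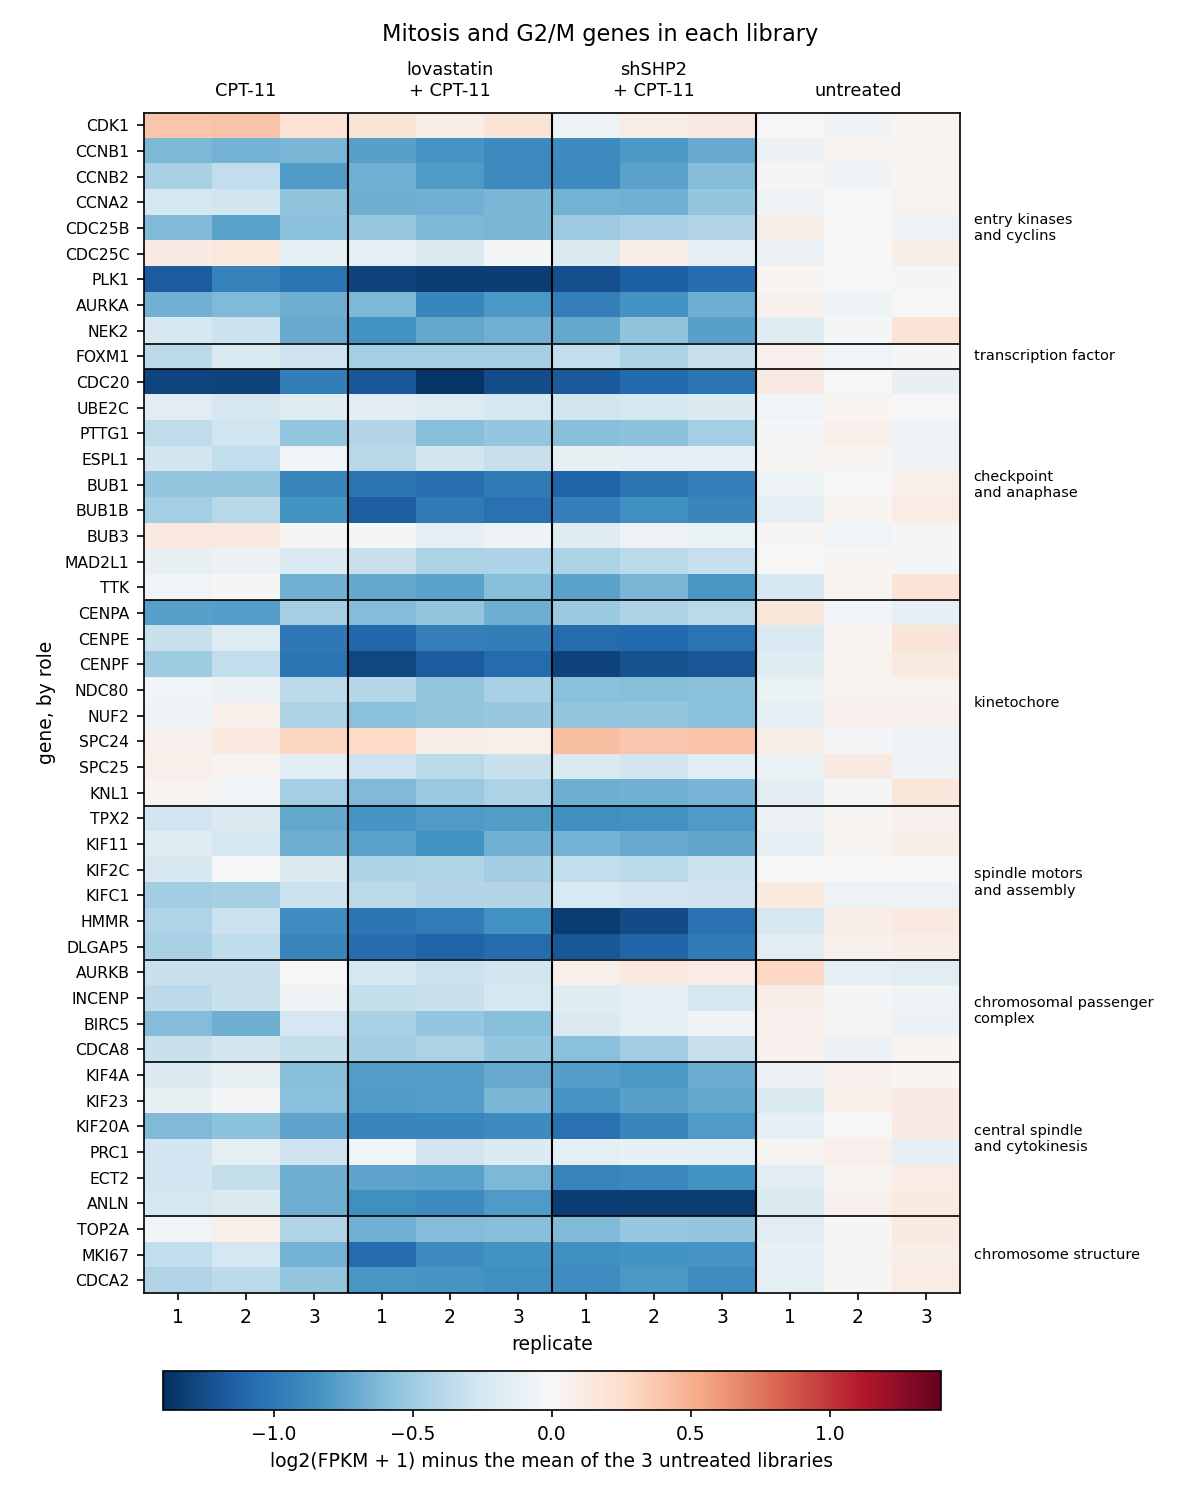
Log2 difference of each of the 46 genes (rows, by role) in each of the 12 libraries (columns, by group) from its untreated mean, on the log2(FPKM + 1) scale. Most rows were below 0 in the 9 treated libraries, and the third CPT-11 library looked more like the lovastatin and SHP2-silenced libraries in many rows.

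With CPT-11 alone most of the mitotic genes were lower, by amounts that differed between roles. Against untreated cells, 26 of the 46 fell and 1 rose at an adjusted p under 0.05, where 7.70% of all 18062 tested genes fell and 8.85% rose. The median difference of the 46 was -0.37 on the log2(FPKM + 1) scale, and that of all tested genes -0.01. This scale understates changes of low genes, the test was limma fitted over all 4 groups, and p-values measure only the spread between libraries, since the labels do not say whether they came from separate cultures. In 30 genes all CPT-11 libraries were below all untreated ones and in 1 all were above, which held for 14.3% and 15.1% of all tested genes. Without the third CPT-11 library, 27 fell and 2 rose (12.9% and 11.6% of all tested genes) with a median of -0.29, the second riser being BUB3.

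Of the 9 kinases, phosphatases and cyclins of mitotic entry, 7 fell with CPT-11. PLK1, the Polo-like kinase that acts from mitotic entry to cytokinesis, had 13.7, 16.0 and 15.2 FPKM in CPT-11 libraries, against 32.5, 31.8 and 31.1 FPKM untreated, a log2 difference of -1.04 ± 0.06 (SE; adjusted p = 1.4e-06). CCNB1, whose product cyclin B1 activates CDK1, had 56.2, 54.8 and 55.7 FPKM with CPT-11, against 82.6, 89.9 and 89.4 FPKM untreated (-0.64 ± 0.06, adjusted p = 3e-05). Neither gene overlapped between the groups, and in neither did the third CPT-11 library stand apart. CDC25B, a phosphatase that activates CDK1, had 44.1, 40.2 and 45.4 FPKM with CPT-11, against 72.3, 68.0 and 64.9 FPKM untreated (-0.65 ± 0.06, adjusted p = 3.8e-05). AURKA, CCNB2, NEK2 and CCNA2 fell by 0.66, 0.53, 0.41 and 0.36 on the log2 scale, with adjusted p from 0.0003 to 0.047. The call of NEK2 was the weakest: without the third CPT-11 library it had -0.26 (adjusted p = 0.082), and it had an adjusted p of 0.053 to 0.16 without any other single library except the first CPT-11 and the first untreated one.

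CDK1 itself, the kinase at the centre of mitotic entry, went the other way. It had 53.5, 54.0 and 46.7 FPKM with CPT-11, against 40.9, 39.2 and 41.7 FPKM untreated, a difference of 0.33 ± 0.07 (adjusted p = 0.0083), or 0.40 ± 0.06 (adjusted p = 0.0012) without the third CPT-11 library. All CPT-11 libraries were above all untreated ones, and the third was the lowest of the CPT-11 values. CDC25C, another CDK1-activating phosphatase, averaged 5.91 ± 0.69 FPKM with CPT-11 and 5.67 ± 0.39 FPKM untreated (SD, n = 3 each; adjusted p = 0.79). FOXM1, the transcription factor of the G2/M program, had 13.7, 15.4 and 14.5 FPKM with CPT-11, against 18.8, 17.5 and 17.7 FPKM untreated (-0.29 ± 0.06, adjusted p = 0.0052), and its decrease was smaller than that of most cyclins and kinases.

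Among the 9 checkpoint and anaphase genes, 5 fell, and CDC20 had the largest decrease of all 46. CDC20, the activator of the anaphase-promoting complex, had 56.3, 55.9 and 70.5 FPKM with CPT-11, against 151, 138 and 129 FPKM untreated (-1.18 ± 0.09, adjusted p = 1.1e-05). The third CPT-11 library was the highest of its group for this gene, and without it the difference was -1.29 ± 0.07 (adjusted p = 1.9e-06). BUB1, a checkpoint kinase of the kinetochore, had 18.4, 18.2 and 13.9 FPKM with CPT-11, against 25.9, 27.1 and 28.7 FPKM untreated (-0.67 ± 0.09, adjusted p = 0.00067). Here the third CPT-11 library was the lowest, and the groups did not overlap. BUB1B, PTTG1 (securin) and UBE2C, the ubiquitin-conjugating enzyme of the anaphase-promoting complex, fell by 0.56, 0.39 and 0.18 on the log2 scale. UBE2C had an adjusted p of 0.056 to 0.08 without the second CPT-11, the second untreated or the third untreated library. The checkpoint genes MAD2L1, TTK and BUB3 and the separase gene ESPL1 did not pass the threshold, with differences of -0.12, -0.23, 0.10 and -0.21, and TTK had -0.01 without the third CPT-11 library. BUB3 and ESPL1 passed it without the third CPT-11 library, at 0.14 (adjusted p = 0.044) and -0.30 (adjusted p = 0.0024).

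Of the 8 kinetochore genes, CENPA and CENPF fell. CENPA, the histone H3 variant that marks the centromere, had 6.88, 6.79 and 8.65 FPKM with CPT-11, against 13.8, 11.9 and 11.3 FPKM untreated (-0.66 ± 0.10, adjusted p = 0.0008), with no overlap. CENPF, a large outer-kinetochore protein, had 30.2, 33.6 and 20.7 FPKM with CPT-11, against 38.1, 44.4 and 47.1 FPKM untreated (-0.62 ± 0.14, adjusted p = 0.013). The third CPT-11 library was the lowest: without it the difference was -0.42 ± 0.09 (adjusted p = 0.0065), and without the third untreated library it was -0.56 with an adjusted p of 0.052. The NDC80 complex subunits NDC80 and NUF2, which bind microtubules, and SPC24 and SPC25, which anchor the complex to the kinetochore, and the scaffold KNL1 had differences of -0.17, -0.15, 0.17, -0.01 and -0.16, with adjusted p of 0.17 or more. They had -0.07, 0.01, 0.10, 0.06 and 0.00 without the third CPT-11 library, with adjusted p of 0.34 or more. The kinetochore motor CENPE had -0.50 ± 0.18 (adjusted p = 0.079), or -0.25 ± 0.10 (adjusted p = 0.1) without the third CPT-11 library.

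Spindle motors and assembly factors fell in 5 of 6 cases. KIFC1, a minus-end-directed motor, had 21.9, 22.3 and 25.1 FPKM with CPT-11, against 34.5, 29.7 and 29.7 FPKM untreated (-0.42 ± 0.07, adjusted p = 0.0018). DLGAP5, which stabilises kinetochore fibres, had 24.9, 26.6 and 17.6 FPKM with CPT-11, against 31.0, 35.8 and 36.6 FPKM untreated (-0.58 ± 0.13, adjusted p = 0.0096). Neither overlapped between the groups, but the third CPT-11 library was the highest of its group for KIFC1 and the lowest for DLGAP5. HMMR, TPX2 (an activator of Aurora A) and KIF11, the motor that separates the spindle poles, fell by 0.53, 0.39 and 0.37 on the log2 scale. TPX2 had -0.23 (adjusted p = 0.0074), KIF11 -0.21 (adjusted p = 0.045) and HMMR -0.36 (adjusted p = 0.045) without the third CPT-11 library. HMMR and TPX2 lost their calls without the second or the third untreated library (adjusted p of 0.088 to 0.1), and KIF11 without any single library other than a CPT-11 one (0.051 to 0.14). The microtubule-depolymerising KIF2C did not pass the threshold, with 30.1, 35.4 and 30.6 FPKM with CPT-11, against 35.0, 35.3 and 35.5 FPKM untreated (-0.14 ± 0.06, adjusted p = 0.15).

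The chromosomal passenger complex, which corrects attachments, was split: BIRC5 (survivin) and CDCA8 (borealin) fell, and AURKB and INCENP did not pass the threshold. BIRC5 had 28.6, 26.9 and 37.0 FPKM with CPT-11, against 45.9, 44.5 and 41.3 FPKM untreated (-0.51 ± 0.10, adjusted p = 0.0054). CDCA8 had 25.3, 26.4 and 24.9 FPKM with CPT-11, against 33.0, 30.0 and 32.3 FPKM untreated (-0.30 ± 0.07, adjusted p = 0.011). Neither overlapped between the groups. AURKB, the kinase of the complex, had 24.3, 24.3 and 30.5 FPKM with CPT-11, against 37.4, 27.5 and 27.0 FPKM untreated (adjusted p = 0.28), and the groups overlapped. INCENP, its scaffold, had -0.24 ± 0.08 (adjusted p = 0.058), and without the third CPT-11 library -0.34 ± 0.05 (adjusted p = 0.0015).

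Of the 6 genes of the central spindle and cytokinesis, KIF20A and ECT2 fell. KIF20A, a motor of the central spindle, had 21.7, 22.4 and 19.9 FPKM with CPT-11, against 31.2, 33.8 and 36.9 FPKM untreated (-0.64 ± 0.08, adjusted p = 0.00022). ECT2, the exchange factor that activates RhoA at the cleavage site, had 29.4, 28.2 and 21.9 FPKM with CPT-11, against 32.1, 36.8 and 38.6 FPKM untreated (-0.43 ± 0.10, adjusted p = 0.014). The groups did not overlap in either gene, but ECT2 had an adjusted p of 0.055 without the second and 0.058 without the third untreated library. ANLN (anillin, the scaffold of the contractile ring), KIF4A, KIF23 and PRC1 had differences of -0.38, -0.30, -0.24 and -0.23, with adjusted p of 0.051 or more, and -0.22, -0.15, -0.07 and -0.20 without the third CPT-11 library, with adjusted p of 0.071 or more.

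In chromosome structure, CDCA2 and MKI67 fell and TOP2A did not pass the threshold. CDCA2, a protein phosphatase 1 subunit that acts on chromatin at mitotic exit, had 14.5, 15.1 and 13.2 FPKM with CPT-11, against 18.1, 20.1 and 21.4 FPKM untreated (-0.45 ± 0.07, adjusted p = 0.001). MKI67, which encodes the Ki-67 protein that coats mitotic chromosomes, had 57.8, 62.0 and 46.2 FPKM with CPT-11, against 68.3, 74.8 and 78.9 FPKM untreated (-0.42 ± 0.10, adjusted p = 0.016). The groups did not overlap, and MKI67 had an adjusted p of 0.055 without the second and 0.063 without the third untreated library. TOP2A, the topoisomerase that untangles sister chromatids, had 52.8, 57.0 and 40.2 FPKM with CPT-11, against 48.9, 55.2 and 59.7 FPKM untreated (-0.13 ± 0.11, adjusted p = 0.46), and these overlapped. Its difference was 0.01 (adjusted p = 0.93) without the third CPT-11 library.

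**Figure D2:**
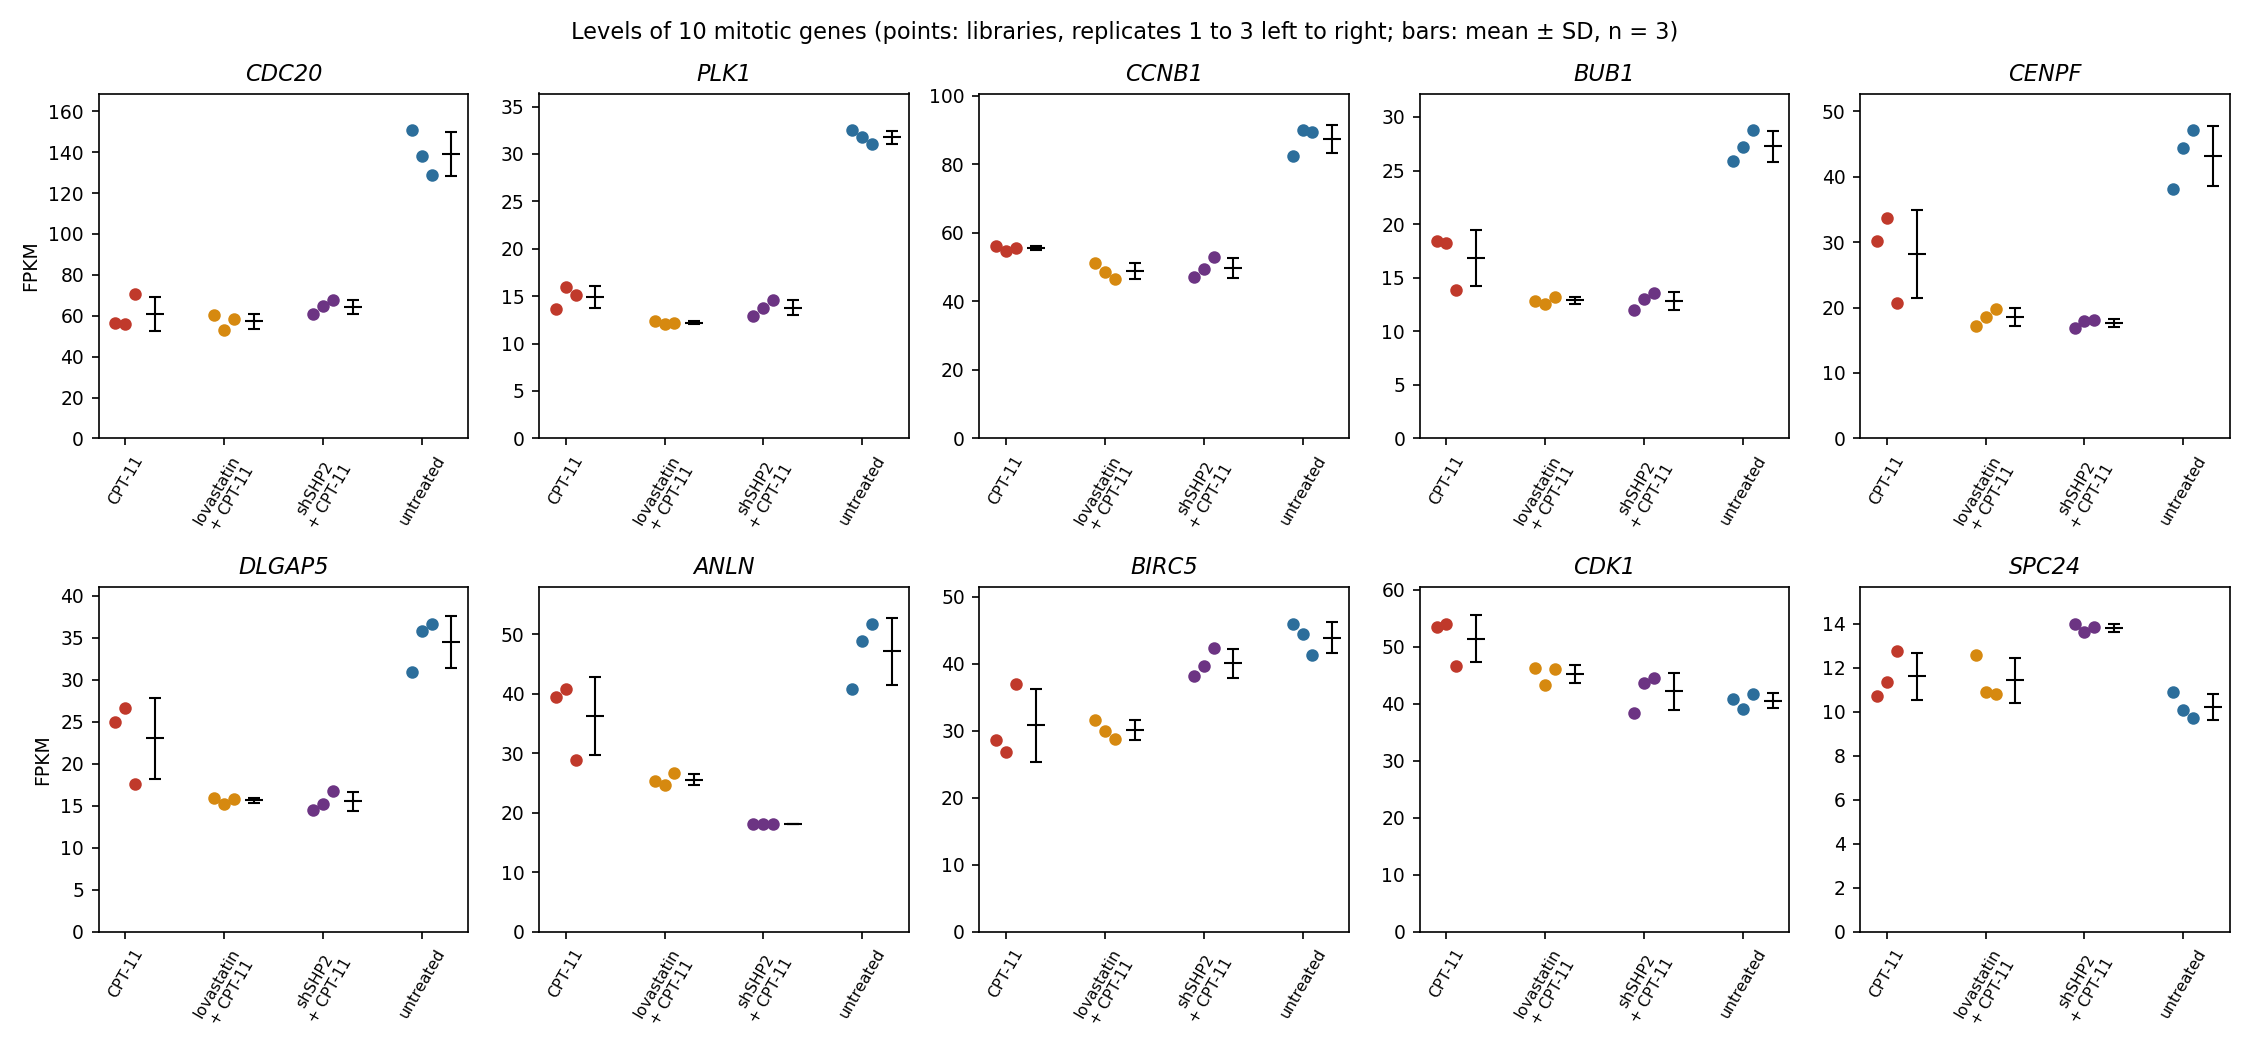
FPKM (y axis) of 10 of the genes in every library (points) by group, with the group mean ± SD (n = 3) beside them. CDC20, PLK1 and CCNB1 lay far below untreated in all 3 treated groups, CDK1 was highest with CPT-11, and ANLN was lowest in SHP2-silenced + CPT-11 cells.

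With lovastatin before CPT-11, most of the mitotic genes were again lower than in untreated cells. Against untreated cells, 40 of the 46 fell and none rose, where 14.3% of all tested genes fell and 14.7% rose, and the median of the 46 was -0.64, against 0.00 for all tested genes. PLK1 had 12.4, 12.1 and 12.2 FPKM with lovastatin + CPT-11, against 32.5, 31.8 and 31.1 FPKM untreated (-1.31 ± 0.06, adjusted p = 1.7e-07). CDC20 had 60.3, 53.1 and 58.3 FPKM with lovastatin + CPT-11 (-1.27 ± 0.09, adjusted p = 4.6e-06), and CCNB1 had 51.2, 48.7 and 46.5 FPKM (-0.83 ± 0.06, adjusted p = 3.1e-06). All lovastatin values of these 3 genes lay below all untreated ones. By role, 7 of 9 entry genes fell, as did FOXM1, 8 of 9 checkpoint and anaphase genes, 7 of 8 kinetochore genes, all 6 spindle genes, 3 of 4 passenger genes, 5 of 6 cytokinesis genes and all 3 genes of chromosome structure. CDK1 had 46.2, 43.4 and 46.1 FPKM, against 40.9, 39.2 and 41.7 FPKM untreated (0.15 ± 0.07, adjusted p = 0.13). Without the third CPT-11 library, whose removal changes the shared estimate of the spread, its adjusted p was 0.049.

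SHP2-silenced cells given CPT-11 also had most of the genes low. Against untreated wild-type cells, 37 of the 46 fell and 1 rose, where 19.5% of all tested genes fell and 18.3% rose, and the median of the 46 was -0.65, against 0.01 for all tested genes. ANLN had 18.2, 18.1 and 18.1 FPKM in SHP2-silenced + CPT-11 cells, against 40.9, 48.9 and 51.8 FPKM untreated, the largest decrease of the 46 there (-1.33 ± 0.12, adjusted p = 1.3e-05). PLK1 had 13.0, 13.8 and 14.6 FPKM (-1.15 ± 0.06, adjusted p = 4.8e-07), CDC20 60.8, 64.9 and 67.6 FPKM (-1.10 ± 0.09, adjusted p = 1e-05) and CCNB1 47.0, 49.6 and 52.9 FPKM (-0.80 ± 0.06, adjusted p = 3.4e-06). None of these overlapped with untreated. The one gene that rose was SPC24, a subunit of the NDC80 complex, with 14.0, 13.6 and 13.8 FPKM, against 10.9, 10.1 and 9.74 FPKM untreated (0.40 ± 0.08, adjusted p = 0.0019). By role, 7 of 9 entry genes fell, as did FOXM1, 7 of 9 checkpoint genes, 7 of 8 kinetochore genes, all 6 spindle genes, 5 of 6 cytokinesis genes and all 3 genes of chromosome structure. Of the 4 passenger genes only CDCA8 fell (-0.47 ± 0.07, adjusted p = 0.00038). BIRC5 (-0.13 ± 0.10, adjusted p = 0.34), AURKB (0.11 ± 0.12, adjusted p = 0.5) and INCENP (-0.18 ± 0.08, adjusted p = 0.092) did not pass.

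The comparisons against untreated share the untreated libraries, so their calls are given side by side only. Against untreated, 25 genes fell in all 3 treated groups, 12 fell with lovastatin and with silencing but not with CPT-11 alone, ESPL1 and INCENP fell with lovastatin only, and BIRC5 with CPT-11 and with lovastatin only. The 12 were ANLN, CENPE, KIF23, KIF2C, KIF4A, KNL1, MAD2L1, NDC80, NUF2, SPC25, TOP2A and TTK. AURKB, BUB3, CDC25C, CDK1, PRC1 and SPC24 fell in none. A call in one group and not in another is no test of a difference between them, and the direct comparisons follow.

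**Figure D3:**
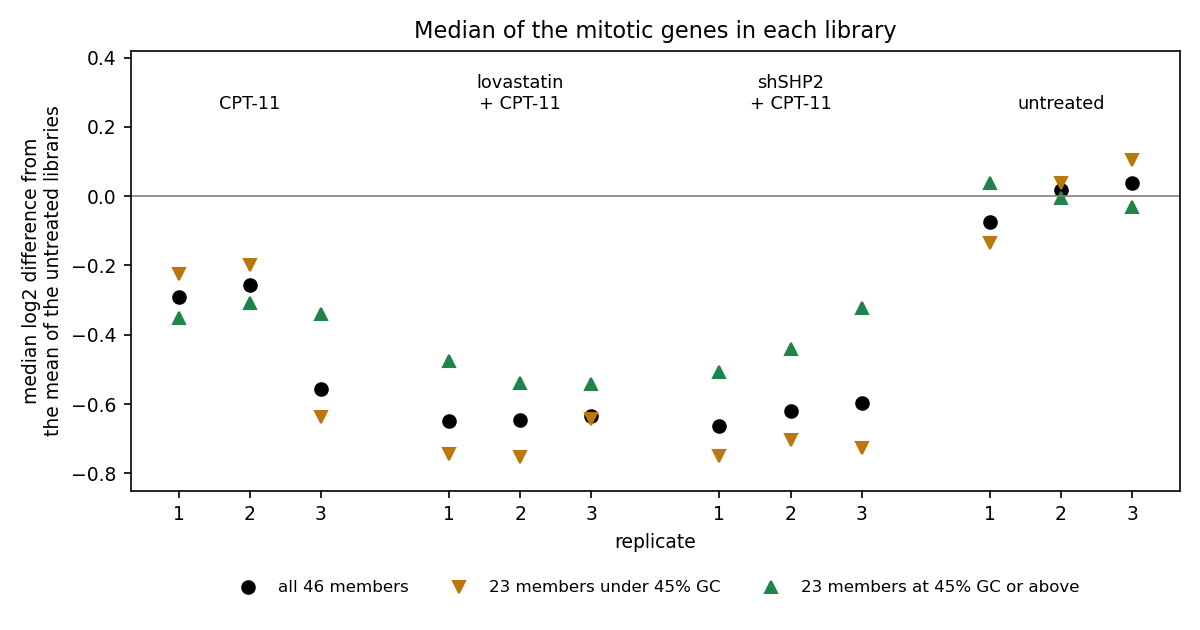
Median log2 difference from the untreated mean in each library, over all 46 genes, over the 23 with a GC content under 45% and over the 23 at 45% or above. The third CPT-11 library lay at -0.56 over all 46 genes, near the lovastatin and SHP2-silenced libraries and apart from -0.29 and -0.26 in the other CPT-11 libraries.

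Lovastatin before CPT-11 gave lower levels than CPT-11 alone in most of the genes, but how many passed the test turned on the third CPT-11 library. With all libraries, 1 of the 46 fell and none rose, where 0.0720% of all tested genes fell and 0.393% rose. The median of the 46 was -0.27, against 0.00 for all tested genes, and 32 fell and 0 rose at an unadjusted p under 0.05. For unadjusted p, here and below, no share of all tested genes is given, so such counts cannot be set against all genes. The gene called was CDCA2, with 10.9, 10.7 and 10.5 FPKM with lovastatin + CPT-11, against 14.5, 15.1 and 13.2 FPKM with CPT-11 (-0.38 ± 0.07, adjusted p = 0.035). The groups did not overlap, but when any single library of either group other than the third CPT-11 one was left out, CDCA2 had an adjusted p of 0.13 to 0.15 and no gene of the 46 was called. MKI67 had 34.4, 39.6 and 41.0 FPKM with lovastatin + CPT-11, against 57.8, 62.0 and 46.2 FPKM with CPT-11 (-0.51 ± 0.10, adjusted p = 0.06), and KIF2C had 25.8, 26.0 and 24.9 FPKM, against 30.1, 35.4 and 30.6 FPKM (-0.31 ± 0.06, adjusted p = 0.054). In 24 genes all lovastatin libraries were below all CPT-11 ones and in 0 above, which held for 8.89% and 8.18% of all tested genes.

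Without the third CPT-11 library, 32 of the 46 fell and none rose (14.3% and 15.9% of all tested genes), with a median of -0.36. The largest decreases were then those of CENPE (-0.76 ± 0.10, adjusted p = 0.0011), CENPF (-0.75 ± 0.09, adjusted p = 0.0008), DLGAP5 (-0.68 ± 0.08, adjusted p = 0.00071) and TTK (-0.67 ± 0.11, adjusted p = 0.002). CENPE had 4.43, 4.99 and 4.94 FPKM with lovastatin + CPT-11, against 8.39 and 9.27 FPKM in the first and second CPT-11 libraries and 4.82 FPKM in the third. CENPF had 17.1, 18.6 and 19.9 FPKM with lovastatin + CPT-11, against 30.2, 33.6 and 20.7 FPKM with CPT-11, and DLGAP5 had 15.9, 15.2 and 15.8 FPKM, against 24.9, 26.6 and 17.6 FPKM. In each of these the third CPT-11 library lay next to the lovastatin libraries and far below its own group. The kinase TTK showed the same, with 10.6, 10.4 and 11.7 FPKM with lovastatin + CPT-11, against 17.7, 18.3 and 11.1 FPKM with CPT-11. Not every gene did: CDC20 (0.03 ± 0.07, adjusted p = 0.82), BIRC5 (0.12 ± 0.06, adjusted p = 0.19) and CENPA (0.15 ± 0.08, adjusted p = 0.19) did not pass without that library, and in these 3 it was the highest of the CPT-11 values.

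The third CPT-11 library lay below the others of its group in most genes of low GC content, and went both ways in the rest. That library was below the other two CPT-11 libraries in 32 of the 46 genes and above both in 9, shares that were 41.2% and 41.1% among all tested genes. Across the 46 genes, its difference from them correlated with the GC content of the gene at r = 0.82, against 0.63 across all tested genes. This is a description over genes measured in the same libraries. Over the 23 genes under 45% GC, a division chosen after the data were seen, the median difference from untreated was -0.22, -0.20 and -0.64 in the CPT-11 libraries, -0.75, -0.75 and -0.64 with lovastatin and -0.75, -0.70 and -0.73 with silencing. Over the 23 genes at 45% or above it was -0.35, -0.31 and -0.34 with CPT-11, -0.48, -0.54 and -0.54 with lovastatin and -0.51, -0.44 and -0.32 with silencing. The medians of the second set did not set the third CPT-11 library apart, but its members went both ways: that library was above both other CPT-11 libraries in 9 of these 23 genes and below both in 10. In the first set it was above both in 0 and below both in 22.

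**Figure D4:**
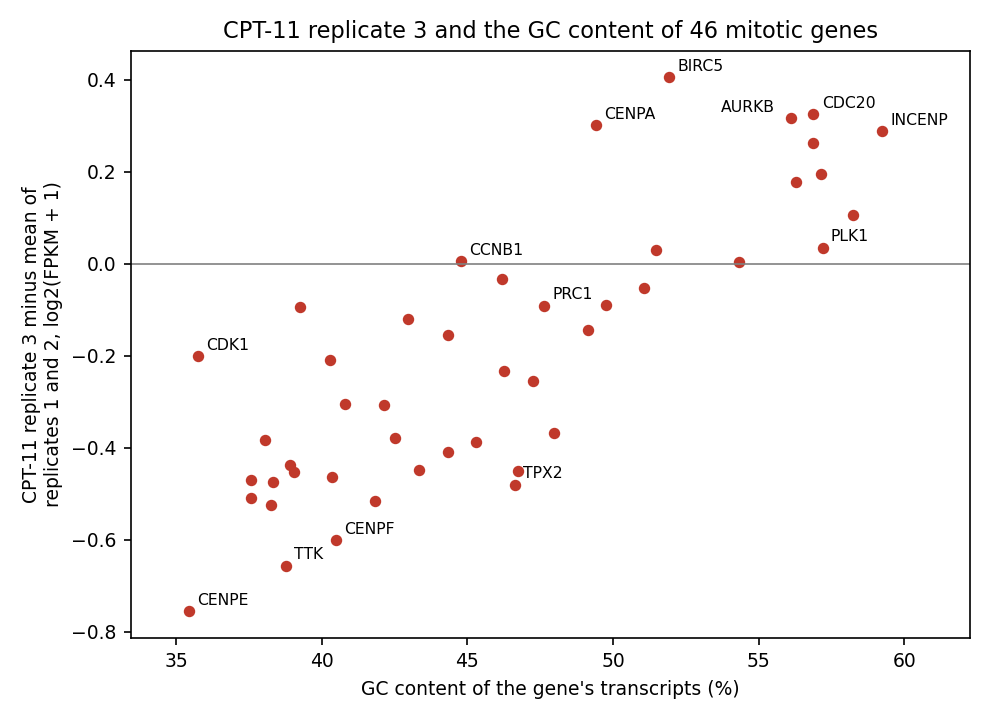
Each point is 1 of the 46 genes, with the GC content of its transcribed sequence on the x axis and, on the y axis, the log2 difference of the third CPT-11 library from the mean of the other two. Genes of low GC content such as CENPE and TTK lay lowest and GC-rich genes such as BIRC5 and CDC20 lay above 0.

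The lovastatin difference was also larger in the genes of low GC content. Without the third CPT-11 library, all 23 genes under 45% GC fell, with a median of -0.53. Of the 23 others 9 fell, with a median of -0.14. For the GC classes no share of all tested genes is given, here or elsewhere. Such counts cannot be set against all genes of like GC content. Across all tested genes, the difference of lovastatin + CPT-11 from untreated correlated with GC content at r = 0.33, against 0.17 across the 46. After a correction of each library for GC content and gene length, added after the data were seen, 15 fell and none rose with all libraries (median -0.23, where 0.967% of all tested genes fell and 0.866% rose), and 29 fell and none rose without the third CPT-11 library (median -0.27, where 7.87% of all tested genes fell and 7.49% rose). In that last fit 19 of 23 genes of low GC content and 10 of the 23 others fell. PLK1 then differed by -0.41 ± 0.06 (adjusted p = 0.003), FOXM1 by -0.27 ± 0.05 (adjusted p = 0.0097), CENPF by -0.53 ± 0.06 (adjusted p = 0.0008) and TPX2 by -0.52 ± 0.04 (adjusted p = 7.2e-05). CCNB1 (-0.10 ± 0.05, adjusted p = 0.23) and CDK1 (-0.07 ± 0.06, adjusted p = 0.48), which passed without that library before the correction, did not pass after it.

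**Figure D5:**
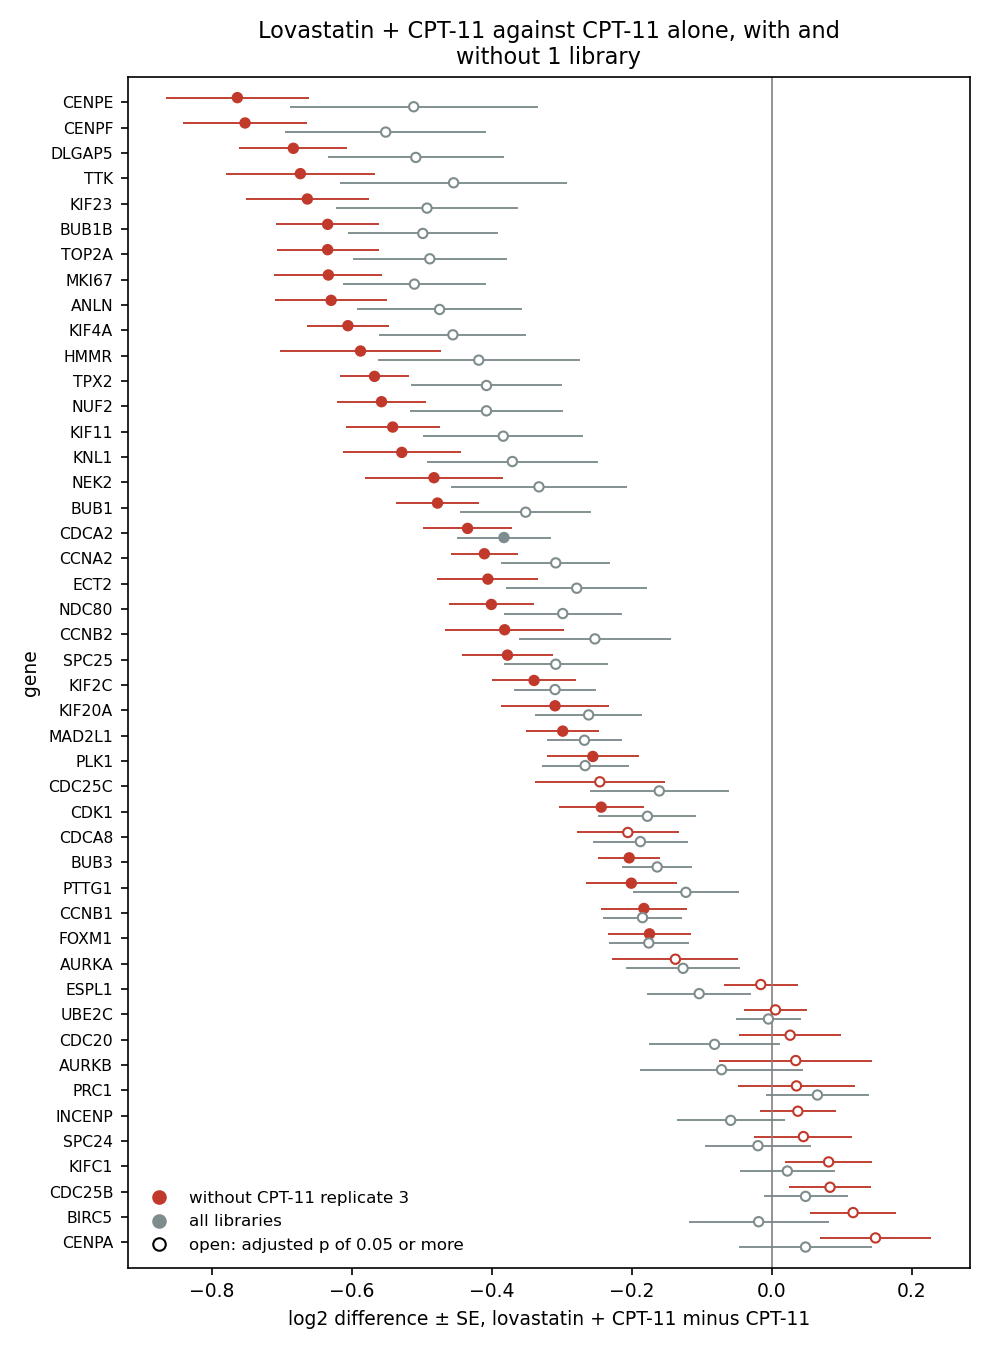
Log2 difference of lovastatin + CPT-11 from CPT-11 for each of the 46 genes, with all CPT-11 libraries and without the third, with standard errors as bars. With all libraries only CDCA2 passed an adjusted p of 0.05, and without the third 32 genes did, all of them lower with lovastatin.

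SHP2-silenced cells given CPT-11 were compared with wild-type cells given CPT-11: 24 of the 46 genes fell and 3 rose. Of all tested genes 12.0% fell and 22.0% were called in either direction. Of all 18062 tested genes 1807 rose, so 3 of 46 was not above the share of risers among all tested genes. The median of the 46 was -0.26, against 0.01 for all tested genes. The decrease was spread over cytokinesis genes (5 of 6), chromosome structure (all 3), spindle (4 of 6), kinetochore (5 of 8) and checkpoint genes (5 of 9), with 2 of 9 entry genes, no passenger gene and not FOXM1. ANLN had the largest difference, with 18.2, 18.1 and 18.1 FPKM in SHP2-silenced + CPT-11 cells, against 39.5, 40.8 and 28.8 FPKM in CPT-11 cells (-0.95 ± 0.12, adjusted p = 0.00083). CDCA2 had 10.4, 10.9 and 10.4 FPKM, against 14.5, 15.1 and 13.2 FPKM (-0.40 ± 0.07, adjusted p = 0.0045). NDC80, the kinetochore subunit that binds microtubules, had 8.91, 8.84 and 9.02 FPKM in SHP2-silenced + CPT-11 cells, against 13.5, 12.9 and 10.5 FPKM in CPT-11 cells (-0.41 ± 0.08, adjusted p = 0.01). None of these 3 overlapped between the groups, and ANLN and CDCA2 passed the threshold in every alternative tried.

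Most other calls of this comparison were lost when any of several single libraries was left out, but the differences kept their direction. KIF4A had -0.46 with all libraries, and -0.41 and -0.36 without the first and the second CPT-11 library. KIF2C had -0.20 with all libraries, and -0.24 and -0.13 without these. In all, 27 genes were called (22.0% of all tested genes), and 37 without the third CPT-11 library (43.5% of all tested genes). The count was 3 without the first and 5 without the second CPT-11 library. It was 3 without the first and 9 without the second SHP2-silenced library. Where other libraries than the third CPT-11 one were left out, no share of all tested genes is given. Those counts cannot be set against all genes. CENPF had 16.9, 17.9 and 18.1 FPKM in SHP2-silenced + CPT-11 cells, against 30.2, 33.6 and 20.7 FPKM with CPT-11 (-0.62 ± 0.14, adjusted p = 0.016). DLGAP5 had 14.5, 15.3 and 16.8 FPKM, against 24.9, 26.6 and 17.6 FPKM (-0.52 ± 0.13, adjusted p = 0.018). In both the groups did not overlap and the third CPT-11 library lay nearest to the silenced ones. In 24 of the 46 genes all SHP2-silenced libraries were below all CPT-11 ones and in 5 all were above, which held for 19.1% and 16.8% of all tested genes. Without the third CPT-11 library, 29 fell and 8 rose (21.9% and 21.6% of all tested genes), and of the 23 genes under 45% GC 22 fell and none rose, whereas of the 23 others 7 fell and 8 rose. After the GC and length correction with all libraries, 20 fell and 1 rose (9.09% and 7.58% of all tested genes).

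BIRC5, CDC25B and SPC24 rose in SHP2-silenced + CPT-11 cells against CPT-11 cells. BIRC5 had 38.1, 39.7 and 42.3 FPKM in SHP2-silenced + CPT-11 cells, against 28.6, 26.9 and 37.0 FPKM in CPT-11 cells (0.38 ± 0.10, adjusted p = 0.024), and without the third CPT-11 library the difference was 0.52 ± 0.06 (adjusted p = 0.00018). CDC25B had 47.8, 49.6 and 51.0 FPKM, against 44.1, 40.2 and 45.4 FPKM (0.19 ± 0.06, adjusted p = 0.044), and SPC24 had 14.0, 13.6 and 13.8 FPKM, against 10.7, 11.3 and 12.8 FPKM (0.24 ± 0.08, adjusted p = 0.047). In all 3 the groups did not overlap, and each had an adjusted p above 0.05 when any single library of either group other than the third CPT-11 one was left out, at 0.057 to 0.099 for BIRC5, 0.078 to 0.17 for CDC25B and 0.1 to 0.17 for SPC24. After the GC and length correction BIRC5 still passed (adjusted p = 0.021), whereas CDC25B (0.04, adjusted p = 0.54) and SPC24 (0.08, adjusted p = 0.23) did not. CDK1 had 38.4, 43.7 and 44.5 FPKM in SHP2-silenced + CPT-11 cells, against 53.5, 54.0 and 46.7 FPKM in CPT-11 cells (-0.28 ± 0.07, adjusted p = 0.021), and after that correction the difference was -0.06.

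Between SHP2-silenced + CPT-11 and lovastatin + CPT-11 cells, 1 of the 46 fell and 1 rose, where 4.26% of all tested genes fell and 2.58% rose, and the median of the 46 was 0.03. In all, 6.84% of all tested genes were called in this comparison. The counts of the 46 were not above the shares of all tested genes in either direction. ANLN fell, with 18.2, 18.1 and 18.1 FPKM in SHP2-silenced + CPT-11 cells, against 25.4, 24.8 and 26.6 FPKM in lovastatin + CPT-11 cells (-0.48 ± 0.12, adjusted p = 0.036). BIRC5 rose, with 38.1, 39.7 and 42.3 FPKM, against 31.7, 29.9 and 28.8 FPKM (0.40 ± 0.10, adjusted p = 0.037). Neither overlapped, and each lost its call when any single library of these groups was left out, with adjusted p of 0.083 to 0.12 for ANLN and 0.065 to 0.13 for BIRC5. Without the third CPT-11 library, which enters only through the shared estimate of the spread, both passed (adjusted p = 0.0021 and 0.0013), and AURKB, SPC24 and ESPL1 also rose, by 0.38, 0.26 and 0.21 on the log2 scale. SPC24 had 14.0, 13.6 and 13.8 FPKM in SHP2-silenced + CPT-11 cells, against 12.6, 10.9 and 10.8 FPKM with lovastatin + CPT-11. The silenced values of SPC24 all lay above the lovastatin ones. In 5 genes all silenced libraries were below and in 14 all were above the lovastatin ones, shares that were 19.2% and 16.3% among all tested genes.

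The remaining named genes were also low with lovastatin and with silencing. BUB1 had 12.9, 12.6 and 13.2 FPKM with lovastatin + CPT-11 and 11.9, 13.0 and 13.6 FPKM in SHP2-silenced + CPT-11 cells, against 25.9, 27.1 and 28.7 FPKM untreated. KIF20A had 17.4, 17.5 and 17.9 FPKM with lovastatin + CPT-11 and 15.9, 17.5 and 19.1 FPKM with silencing, against 31.2, 33.8 and 36.9 FPKM untreated. Both treated groups lay below all untreated values in these genes. ECT2 had 21.0, 20.8 and 22.7 FPKM with lovastatin + CPT-11 and 18.2, 18.7 and 19.5 FPKM with silencing, CENPA had 7.75, 8.05 and 7.26 FPKM and 8.27, 8.88 and 9.20 FPKM, and CDCA8 had 22.3, 23.1 and 21.5 FPKM and 20.8, 22.4 and 25.1 FPKM. FOXM1 had 12.7, 12.7 and 12.8 FPKM with lovastatin + CPT-11 and 14.0, 13.0 and 14.2 FPKM with silencing, and KIFC1 had 23.9, 23.3 and 23.2 FPKM and 26.8, 25.8 and 25.3 FPKM. All of these were below their untreated values. MKI67 had 40.3, 40.8 and 41.2 FPKM and KIF2C 27.6, 27.0 and 28.5 FPKM with silencing, and NDC80 had 10.3, 9.15 and 9.89 FPKM and CDC25B 46.8, 44.0 and 43.4 FPKM with lovastatin + CPT-11, again below all untreated values. Of the genes in this paragraph, the silenced values of CENPA, KIFC1, FOXM1, KIF2C and CDC25B were all above the lovastatin ones and those of ECT2 and NDC80 all below, but none passed the threshold between these 2 groups (adjusted p of 0.20 to 0.48).

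Lists of related genes, chosen like the members with earlier results known, were examined next. In a list of 59 other mitotic genes, 22 fell and 1 rose with CPT-11 against untreated, where 7.70% of all tested genes fell and 8.85% rose, with a median of -0.20, and 23 fell and 3 rose without the third CPT-11 library. NCAPD2, a condensin subunit, averaged 48.3 ± 1.29 FPKM with CPT-11 and 68.2 ± 1.97 FPKM untreated (-0.49 ± 0.04, adjusted p = 2.2e-05), and KIF22, a chromosome-arm motor, 24.8 ± 0.83 and 34.1 ± 2.12 FPKM (SD, n = 3 each; -0.44 ± 0.05, adjusted p = 0.00027). Against untreated, 42 of the 59 fell and 1 rose with lovastatin + CPT-11, where 14.3% of all tested genes fell and 14.7% rose. With silencing 40 fell and 2 rose, where 19.5% and 18.3% did. Against CPT-11 alone, 0 of the 59 passed with lovastatin by limma (40 fell and 0 rose at an unadjusted p under 0.05), where 0.0720% of all tested genes fell and 0.393% rose. Of these 59 genes, 36 fell and 4 rose without the third CPT-11 library, against 14.3% and 15.9% of all tested genes. With silencing 17 fell and 3 rose against CPT-11 alone, where 12.0% of all tested genes fell and 22.0% were called in either direction. In that comparison 1807 of all 18062 tested genes rose, so 3 of 59 was not above the share of risers among them. Without the third CPT-11 library 31 of the 59 fell and 6 rose with silencing, against 21.9% and 21.6% of all tested genes. Of 17 subunits and cofactors of the anaphase-promoting complex, 4 fell and 1 rose with CPT-11 (7.70% and 8.85% of all tested genes), with a median of -0.07, and without the third CPT-11 library 5 fell and 1 rose, with a median of 0.05. UBE2S, its chain-extending enzyme, averaged 61.9 ± 11.3 FPKM with CPT-11 and 98.5 ± 6.51 FPKM untreated (-0.67 ± 0.11, adjusted p = 0.0022), and ANAPC1, its largest subunit, 6.38 ± 0.56 and 8.80 ± 0.53 FPKM (-0.41 ± 0.08, adjusted p = 0.0066).

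The regulators above the program were divided. Of 13 genes of the DREAM and MuvB complexes, 4 fell and none rose with CPT-11 against untreated (6 and 0 at an unadjusted p under 0.05), with a median of 0.03, where 7.70% of all tested genes fell and 8.85% rose. When the third CPT-11 library was left out 3 fell and 1 rose, with a median of -0.01. E2F4 averaged 30.7 ± 1.94 FPKM with CPT-11 and 39.3 ± 1.53 FPKM untreated (-0.35 ± 0.06, adjusted p = 0.0027), and its partner TFDP1 52.7 ± 2.91 and 60.8 ± 1.46 FPKM (-0.20 ± 0.06, adjusted p = 0.036). Of 12 CDK inhibitors and G2 arrest genes, 11 were measured, and 2 fell and 7 rose with CPT-11 (7.70% and 8.85% of all tested genes), or 1 fell and 7 rose without the third CPT-11 library. CDKN1A, which encodes p21, had 495, 483 and 592 FPKM with CPT-11, against 156, 154 and 142 FPKM untreated (1.78 ± 0.08, adjusted p = 2.8e-07), and BTG2, another p53 target, had 60.9, 58.9 and 65.4 FPKM, against 23.4, 21.3 and 20.4 FPKM (1.47 ± 0.06, adjusted p = 1.3e-07). All CPT-11 values of both lay far above the untreated ones. CDKN1A had 704, 679 and 636 FPKM with lovastatin + CPT-11 and 596, 606 and 626 FPKM in SHP2-silenced + CPT-11 cells, with differences from CPT-11 alone of 0.37 (adjusted p = 0.098) and 0.22 (adjusted p = 0.072), neither past the threshold. Both passed without the third CPT-11 library, the highest of its group, at 0.46 (adjusted p = 0.0013) and 0.32 (adjusted p = 0.0027). Of 33 replication genes, 11 fell and 6 rose with CPT-11 (7.70% and 8.85% of all tested genes), with a median of -0.06, and 11 fell and 8 rose without the third CPT-11 library: the helicase subunit gene MCM7 fell by 0.61 ± 0.06 on the log2 scale (adjusted p = 4e-05) and the sliding clamp gene PCNA rose by 0.96 ± 0.06 (adjusted p = 3.3e-06).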

How the data were processed

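RNA-seq of 12 HCT-116 libraries in 4 groups of 3 was analysed from the expression table deposited by the authors, whose values are FPKM per gene. Per the submitters' processing notes reads were handled with featureCounts (1.5.0-p3), HISAT2 (2.0.5) and StringTie (1.3.3b), DESeq2 (1.16.1) is named too, and the build is hg19. The coordinates in the deposited table are those of GENCODE 29 on GRCh38 for all 58735 Ensembl genes, and the strand setting of the counting is not given in the sources used here. Whole reads were recovered from FPKM and gene length (100% of values whole within 0.01). The scale of each library followed a size factor, the median ratio of its reads to the gene means, and not its total reads. Scale times size factor was 0.998 to 1.001 relative to the mean over libraries, and scale times total reads 0.959 to 1.040. A gene was tested if 3 or more libraries held 10 or more reads of it after scaling to the median library, and all libraries together 15 or more. The test was limma 3.58.1 (R 4.3.3) with a mean-variance trend on log2(FPKM + 1), all groups sharing one estimate of the spread, with Benjamini-Hochberg adjustment over all 18062 genes and a threshold of 0.05, and the procedure was tested on simulated data. Members are called by symbol. Values in every library are given for the 2 members of each role with the smallest p in CPT-11 against untreated, for members called against the majority direction in any comparison and for the 3 with the smallest p in each other comparison. CENPE, TTK, AURKB and TOP2A were chosen in addition after their values were seen. The members and lists were chosen with earlier results of these data known, so patterns shared with those results are no independent support. Alternatives were another pseudocount, other filters, only the compared groups, a replicate block, scaling to library totals, voom on the recovered reads and leaving out each library. A GC content and length correction of each library (natural splines of 4 degrees of freedom) was chosen after seeing the data. Replicate numbers were not treated as pairs. Same-numbered libraries of different groups correlated in their deviations at -0.39 to 0.17, and libraries of other numbers at -0.33 to 0.44. These ranges overlap, so they do not settle whether the libraries were paired.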

Additional observations from a re-analysis of the deposited data

How the results depend on the processing

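Of 126 named member results, 72 were called, and none of them changed direction under any alternative tried. Counts of members called stayed within 1.5 times the reported count in the lovastatin + CPT-11 and SHP2-silenced + CPT-11 comparisons with untreated, which had 40 and 38 calls and ranged from 39 to 42 and 37 to 40 on leaving out single libraries, and for CPT-11 against untreated, with 27 calls, from 20 to 30. Fitting only the compared groups gave 13 calls for CPT-11 against untreated, 0 for lovastatin + CPT-11 and 2 for SHP2-silenced + CPT-11 against CPT-11, and 6 between SHP2-silenced and lovastatin cells. That fit uses 6 libraries in place of 12. Of all tested genes it called 6.39%, 0.199%, 2.50% and 13.5% in these comparisons, in the same order. For lovastatin + CPT-11 against CPT-11 (1 call by limma, 32 at an unadjusted p under 0.05), the count was 0 with no filter and with the replicate block, 3 when scaled to library totals, 5 with voom, 15 after the GC and length correction and 29 with that correction without the third CPT-11 library. It ranged from 0 to 32 on leaving out single libraries, the 32 being without the third CPT-11 one (30.2% of all tested genes). Among all tested genes the shares called were 0.255% with the replicate block, 0.775% with voom and 1.83% after the correction. With the correction and without the third CPT-11 library the share was 15.4%. For SHP2-silenced + CPT-11 against CPT-11 (27 calls) the count of members was 10 with no filter and 3 to 37 on leaving out single libraries. For SHP2-silenced against lovastatin cells (2 calls by limma, 7 at an unadjusted p under 0.05) it was 0 with no filter and with the replicate block, 5 after the correction, 8 with it without the third CPT-11 library, and 0 to 5 on leaving out single libraries. Among all tested genes 12.7% were called after the correction and 15.3% with it without the third CPT-11 library. No share of all tested genes is given for the fits with no filter or scaled to library totals. The same holds for the fits without single libraries, except where a share is printed. Such counts cannot be set against all genes. The cause of these shifts in counts was not tested. Whether the numbers of the replicate block pair the libraries is not known. The block gave 22, 40 and 37 calls for CPT-11, lovastatin + CPT-11 and SHP2-silenced + CPT-11 against untreated. It gave 19 for SHP2-silenced + CPT-11 against CPT-11. Of all tested genes it called 12.6%, 24.9%, 33.6% and 13.0% in these comparisons, in the same order. With 3 libraries a group, about 206 or more reads stood behind each value of every member except PRC1.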
